A study of Mus musculus with 5 samples.

Results

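The matrix proteases and inhibitors described here are the genes whose symbols begin with Mmp, Timp or Adamts and that held at least 10 estimated counts in 2 or more of the 5 libraries. Of 24531 genes in the table, 51 carried such a symbol and 37 of these met the count rule. They comprised 14 of 23 matrix metalloproteinase genes (Mmp), 4 of 4 genes for tissue inhibitors of metalloproteinases (Timp), 14 of 19 Adamts genes and 5 of 5 Adamts-like genes (Adamtsl). The 14 genes below the rule reached at most 15 counts in any library, and 5 of them (Mmp1a, Mmp1b, Mmp7, Mmp10 and Mmp20) had no count in any.

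Messenger RNA was sequenced from primary adipocytes, the fat cells isolated from the epididymal fat pad, of C57BL/6N mice fed a high-fat diet for 12 weeks. The control group (f/f, 3 libraries) had the genotype Prmt1 f/f, in which the gene for the arginine methyltransferase PRMT1 is flanked by recombination sites and which the labels also list as wild type. The other group (FKO, 2 libraries) had an adipocyte-specific deletion of Prmt1. Both groups shared the strain and the diet. The Cre driver, the exons removed, the age and sex of the mice and the number of animals behind a library were not given in the sources used here. The p-values therefore refer to the spread among the 5 libraries, which may be technical.

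Total estimated counts were 43580154 to 57016997 per library. Levels are given in CPM, counts brought to a common library size with TMM factors that correct for differences in library composition, and 3 counts, the most that a gene with no count could hold at these depths, made 0.0468 to 0.0713 CPM. Prmt1 itself was 1.58-fold lower in FKO (edgeR adjusted p = 0.0171). In the edgeR quasi-likelihood test at a Benjamini-Hochberg adjusted p of 0.05, 25.4% of the 14492 genes tested were called. The 10 adipocyte markers (Adipoq, Fabp4 and others) summed to 43385, 35038 and 39458 CPM in f/f and to 55120 and 49855 CPM in FKO, so the labelled cell type carried its defining genes in every library.

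Matrix metalloproteinases (MMPs) are zinc enzymes that are made as inactive precursors and cut collagens, gelatin and other matrix proteins outside the cell. TIMPs block them by binding over the catalytic zinc. ADAMTS enzymes are secreted relatives that carry thrombospondin repeats and cut proteoglycans or trim procollagens, while ADAMTS-like proteins have the repeats but no protease domain. In adipose tissue these enzymes remodel the mesh around fat cells as the cells enlarge.

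The zinc-binding site is the feature that the proteases share and that the inhibitors and ADAMTS-like proteins lack. It was searched in the coding sequence of GENCODE transcripts (build GRCm38) as 11 codons, 33 bases, in which codons 1, 5 and 11 encode the zinc-binding histidines and codon 2 the catalytic glutamate. These codons are in capitals. The search also required glycine or asparagine as codon 8, so a site with another residue there could not be found. All 14 MMP genes held the site, each within 1 exon and each with glycine as codon 8. Of the 14 ADAMTS genes, 13 held it, every time across an exon junction, and none of the 4 TIMP and 5 ADAMTS-like genes did. Of the residues the search allowed, codon 8 was glycine in 9 ADAMTS genes and asparagine in 4 (Adamts1, Adamts4, Adamts9 and Adamts15). Adamts8 gave no match to this search, which does not show that it lacks a site with another residue as codon 8. The sites of the 4 MMP genes that passed the test between groups are shown 5′ to 3′ on the coding strand, to make the enzymes comparable.
Mmp11: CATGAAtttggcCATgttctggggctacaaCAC
Mmp19: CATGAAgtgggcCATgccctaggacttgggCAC
Mmp9: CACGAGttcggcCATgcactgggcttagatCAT
Mmp23: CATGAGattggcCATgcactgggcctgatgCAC
These lay at chr10:75926931-75926963 (minus strand, exon 5), chr10:128795673-128795705 (plus strand, exon 5), chr2:164951133-164951165 (plus strand, exon 8) and chr4:155651528-155651560 (minus strand, exon 5).

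The sites of the 6 ADAMTS genes that passed the test are given the same way. Their coordinates enclose an intron, and the build is again GRCm38.
Adamts1: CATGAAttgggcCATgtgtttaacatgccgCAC
Adamts4: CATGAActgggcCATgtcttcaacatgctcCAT
Adamts9: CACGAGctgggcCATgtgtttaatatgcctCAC
Adamts5: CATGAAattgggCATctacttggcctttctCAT
Adamts2: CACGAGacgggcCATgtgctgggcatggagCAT
Adamts10: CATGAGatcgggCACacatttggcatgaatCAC
They span chr16:85799191-85799545 (minus strand, exons 3 and 4), chr1:171253210-171253915 (plus strand, exons 3 and 4), chr6:92905285-92908493 (minus strand, exons 8 and 9), chr16:85878015-85887826 (minus strand, exons 2 and 3), chr11:50775403-50776134 (plus strand, exons 7 and 8) and chr17:33538157-33538279 (plus strand, exons 9 and 10). The Adamts9 site lies outside the stretch that the deposited table gives for that gene, chr6:92772699-92901441, so the counted model does not include it. Adamts2 and Adamts14, both procollagen proteinases, shared 30 of the 33 bases.

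The study compared Prmt1 f/f adipocytes with adipocytes from mice with the deletion. Prmt1 RNA was lower but still present in FKO, at 21.0 and 19.3 CPM against 34.1, 29.4 and 32.3 CPM in f/f. Of the 37 genes, 14 were called (37.8%, against 25.4% of all genes tested). Of these, 3 were higher in FKO (8.11%), against 11.9% of all genes tested, and 11 were lower (29.7%), against 13.4% of all genes. The 3 that rose were Mmp11, Mmp19 and Adamts9. The 11 that fell were Adamts5, Adamtsl2, Mmp23, Adamts2, Mmp9, Timp1, Timp2, Adamts4, Adamts10, Adamtsl4 and Adamts1. The median log2 fold change, FKO over f/f, was -0.67 over the 37 genes and -0.047 over all genes tested. A negative value was found in 27 of the 37, and the share of negative values over all genes was not counted. The f/f and FKO libraries did not overlap in 20 of the 37 genes (54.1%), a share below the 59% among all genes tested, of which 28.6% had both FKO libraries above and 30.5% had both below. In bulk RNA, fewer cells of a type and less RNA per cell cannot be told apart.

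**Figure D1:**
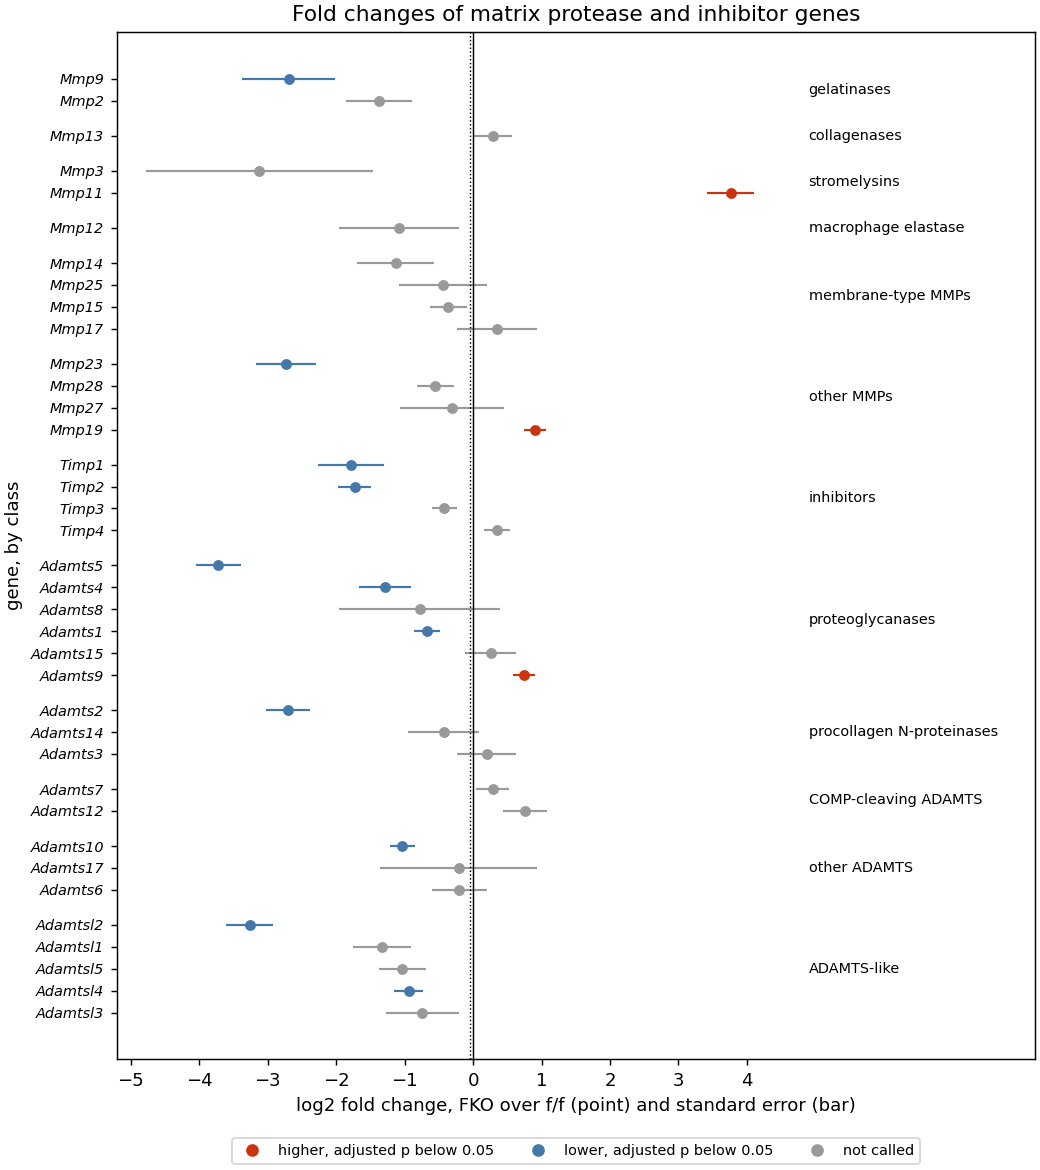
Log2 fold change of FKO over f/f (x axis) for each of the 37 genes (y axis), grouped by class; points are edgeR estimates, bars their standard errors, colours the call at an adjusted p of 0.05, and the dotted line the median of all genes tested (-0.047). Mmp11 at 3.76 and Adamts5 at -3.72 lie at the ends, and 27 of 37 points are below 0.

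Among the MMPs the stromelysin-type enzyme Mmp11 and the broadly acting Mmp19 rose, the gelatinase Mmp9 and the membrane-tethered Mmp23 fell, and the other 10 did not pass the test. Mmp11 (gene 17385, chr10:75923222-75932502, mm10 as in the deposited table) encodes stromelysin-3, an enzyme that is activated inside the cell by furin. It stood at 2.39, 2.99 and 4.0 CPM in f/f 1 to f/f 3 and at 27.5 and 57.8 CPM in FKO 1 and FKO 2, from 108, 176 and 256 counts against 1236 and 2434. Every FKO library was above every f/f library, but the FKO libraries differed from each other, with an SD of 21.5 CPM around a mean of 42.7 CPM. Its log2 fold change was 3.76 (SE 0.35, 13.6-fold, edgeR adjusted p = 0.00154), and without FKO 2 the fold was 8.77.

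Mmp19 (gene 58223, chr10:128790910-128800827), an enzyme that cuts basement membrane proteins, had the highest FPKM of the 14 MMPs. Its values were 97.1, 92.5 and 119.2 CPM in f/f and 193.8 and 189.6 CPM in FKO. The FKO libraries lay close together and well above all f/f libraries, at 192 ± 3.02 CPM (SD, n = 2) against 103 ± 14.3 CPM (SD, n = 3). The log2 fold change was 0.90 (SE 0.16, 1.86-fold, edgeR adjusted p = 0.00915).

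Mmp23 (gene 26561, chr4:155650655-155653384) encodes a short enzyme held in the membrane by its amino end. It stood at 2.88, 4.32 and 6.67 CPM in f/f and at 0.78 and 0.62 CPM in FKO. All f/f libraries were above both FKO libraries, with 130, 254 and 427 counts against 35 and 26. It fell by 2.73 on the log2 scale (SE 0.44, 6.61-fold lower, edgeR adjusted p = 0.00716).

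Mmp9 (gene 17395, chr2:164948219-164955850), the gelatinase B of leukocytes and macrophages, varied most among the f/f libraries of the called MMPs. It stood at 10.4, 3.84 and 21.0 CPM in f/f and at 2.09 and 1.54 CPM in FKO. The lowest f/f library was still above both FKO libraries. The log2 fold change was -2.69 (SE 0.68, 6.45-fold lower, edgeR adjusted p = 0.0296), and without f/f 3 it was -1.97 (3.92-fold lower). Mmp2, the other gelatinase, is typical of fibroblasts and stood at 4.72, 10.8 and 16.1 CPM in f/f and at 3.78 and 4.40 CPM in FKO. Its groups did not overlap, but its log2 fold change of -1.37 (SE 0.48) did not pass (edgeR adjusted p = 0.0746).

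Mmp12, the macrophage elastase, was the clearest case of unlike FKO libraries. It stood at 50.1, 32.2 and 105.2 CPM in f/f, at 5.56 CPM in FKO 1 and at 53.7 CPM in FKO 2. FKO 2 thus sat inside the f/f range and FKO 1 far below it. The log2 fold change of -1.08 had an SE of 0.87 (edgeR adjusted p = 0.396). It was -3.49 without FKO 2 (edgeR adjusted p = 0.0419), but -0.22 without FKO 1 and -0.48 without f/f 3 (edgeR adjusted p = 0.86 and 0.732).

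The membrane-type enzymes (Mmp14, Mmp15, Mmp17 and Mmp25) anchor their protease domain at the cell surface, and none of the 4 passed the test. Mmp23, also held in the membrane, is not counted among these 4, and it fell as given above. Mmp14, the activator of pro-MMP2, stood at 6.81, 11.3 and 28.8 CPM in f/f and at 6.58 and 7.72 CPM in FKO (log2 fold change -1.13, edgeR adjusted p = 0.178), and without f/f 3 the log2 fold change was -0.34. Mmp15 stood at 8.94, 16.7 and 11.4 CPM in f/f and at 9.96 and 9.27 CPM in FKO. The groups overlapped in both genes. Mmp28, the epilysin, stood at 62.3, 90.0 and 46.5 CPM in f/f and at 48.9 and 41.8 CPM in FKO, with a log2 fold change of -0.55 (edgeR adjusted p = 0.181). Mmp13, the main interstitial collagenase of rodents, was low and overlapped between groups, at 1.84, 2.67 and 2.06 CPM in f/f and at 2.56 and 2.80 CPM in FKO (edgeR adjusted p = 0.487). Mmp12 and Mmp13 belong to a cluster of 10 Mmp genes within 427 kb of chromosome 9, chr9:7272514-7699585, of which 4 met the count rule and none was called. The other 2 of these, Mmp3 and Mmp27, had means under 1 CPM, as had Mmp17 and Mmp25.

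The inhibitors did not move as a group. Timp1 and Timp2 fell, Timp3 did not pass the test, and Timp4, the one that dominates in fat cells here, did not pass and had higher FKO than f/f means. Timp2 (gene 21858, chr11:118301061-118355411), which both inhibits MMPs and takes part in the activation of pro-MMP2, stood at 90.9, 83.0 and 134.9 CPM in f/f and at 28.8 and 33.3 CPM in FKO. All f/f libraries lay above both FKO libraries. It fell by 1.73 on the log2 scale (SE 0.24, 3.32-fold lower, edgeR adjusted p = 0.00464).

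Timp1 (gene 21857, chrX:20870166-20874737), an inhibitor of most secreted MMPs, was the least abundant of the 4. It stood at 1.51, 2.02 and 3.37 CPM in f/f and at 0.49 and 0.86 CPM in FKO, from 68, 119 and 216 counts against 22 and 36. The groups did not overlap, and the log2 fold change was -1.78 (SE 0.48, 3.43-fold lower, edgeR adjusted p = 0.0359).

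Timp3 (chr10:86300412-86349505), the inhibitor that binds to the matrix and also blocks ADAM and ADAMTS enzymes, stood at 212.7, 265.8 and 286.1 CPM in f/f and at 205.3 and 174.6 CPM in FKO. Both FKO libraries were below the lowest f/f library, by a small margin in FKO 1, and the log2 fold change of -0.42 (SE 0.18) did not pass (edgeR adjusted p = 0.122). Timp4 (gene 110595, chr6:115245616-115251849), an inhibitor abundant in heart and fat, stood at 267.4, 343.8 and 382.1 CPM in f/f and at 380.0 and 463.4 CPM in FKO. FKO 1 lay just inside the f/f range (log2 fold change 0.35, SE 0.19, edgeR adjusted p = 0.226). All 4 inhibitors had their highest f/f value in f/f 3, and the share of all genes that did so was not counted. Timp1, Timp3 and Timp4 lie inside the synapsin genes Syn1, Syn3 and Syn2 in the table, and counting by strand is not stated. Syn1 held 11, 26 and 79 counts in f/f against 6 and 12 counts in FKO, Syn3 at most 107 in a library and Syn2 136 to 792.

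**Figure D2:**
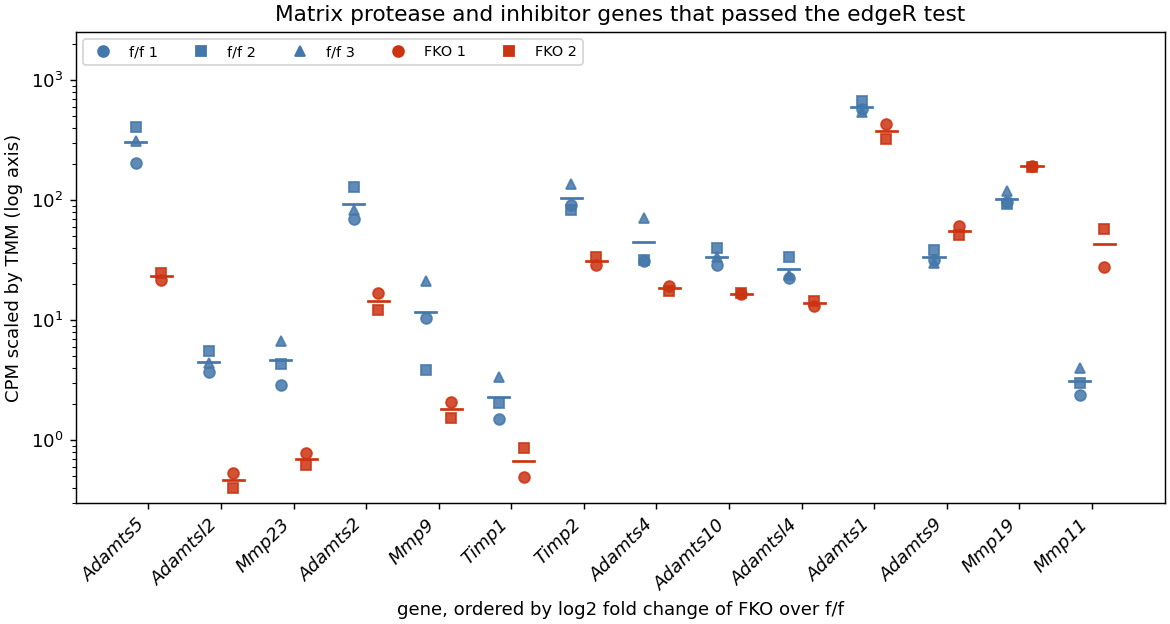
CPM scaled by TMM on a log axis for the 14 genes that passed the edgeR test, ordered by log2 fold change; blue symbols are the 3 f/f libraries, red symbols the 2 FKO libraries and horizontal lines the group means. The groups do not overlap in any of the 14, from Adamts5 (307 to 23.3 CPM in the means) to Mmp11 (3.13 to 42.7 CPM). The calls came from these same libraries, so the separation adds no support to them, and 59% of all genes tested did not overlap.

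The ADAMTS enzymes that cut the proteoglycans aggrecan and versican moved in both directions. Of 6 such genes, Adamts5, Adamts4 and Adamts1 fell, Adamts9 rose, and Adamts15 and Adamts8 did not pass the test. Adamts5 (gene 23794, chr16:85858157-85901125), the main aggrecanase of mouse cartilage, stood at 202.2, 406.9 and 311.5 CPM in f/f and at 21.7 and 24.8 CPM in FKO. The FKO libraries were alike and far below the lowest f/f library, at 23.3 ± 2.16 CPM (SD, n = 2) against 307 ± 102 CPM (SD, n = 3). Its log2 fold change was -3.72 (SE 0.33, 13.2-fold lower, edgeR adjusted p = 0.0014), the lowest of the 37.

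Adamts1 (gene 11504, chr16:85793828-85803113), a versican-cutting enzyme, lies 55.0 kb from Adamts5 with 1 gene between them. Its values were 574.8, 672.5 and 540.6 CPM in f/f and 430.6 and 320.6 CPM in FKO. The groups did not overlap, but the difference was far smaller than that of its neighbour (log2 fold change -0.67, SE 0.19, 1.59-fold lower, edgeR adjusted p = 0.0437). Without f/f 1 or f/f 2 it no longer passed (edgeR adjusted p = 0.0689 and 0.0881).

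Adamts4 (gene 240913, chr1:171250129-171262267), another aggrecanase, stood at 31.2, 31.8 and 70.9 CPM in f/f and at 19.4 and 17.5 CPM in FKO. One f/f library, f/f 3, stood well above the others, and the log2 fold change of -1.28 (SE 0.38, 2.42-fold lower) passed narrowly (edgeR adjusted p = 0.0479). Adamts9 (gene 101401, chr6:92772699-92901441), a versican-cutting enzyme, stood at 31.9, 38.0 and 30.0 CPM in f/f and at 60.4 and 51.0 CPM in FKO. It rose by 0.74 on the log2 scale (SE 0.16, 1.67-fold, edgeR adjusted p = 0.0182), with both FKO libraries above all f/f libraries. Adamts15 stood at 2.02, 4.81 and 3.73 CPM in f/f and at 4.38 and 4.09 CPM in FKO, within the f/f range (edgeR adjusted p = 0.628).

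Of the 3 procollagen N-proteinases, which remove the amino-terminal propeptide so that fibrils can form, Adamts2 fell and the other 2 did not pass. Adamts2 (gene 216725, chr11:50602085-50807573) stood at 69.3, 128.4 and 82.5 CPM in f/f and at 16.7 and 12.1 CPM in FKO. The lowest f/f library was far above the higher FKO library. The log2 fold change was -2.70 (SE 0.32, 6.49-fold lower, edgeR adjusted p = 0.00272). Adamts14 stood at 0.73, 1.38 and 2.12 CPM in f/f and at 0.78 and 1.33 CPM in FKO (edgeR adjusted p = 0.574), and Adamts3 had a mean under 1 CPM.

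Adamts10 (gene 224697, chr17:33524085-33553782), which binds fibrillin and is mutated in a form of Weill-Marchesani syndrome in humans, also fell. It stood at 28.6, 39.6 and 33.3 CPM in f/f and at 16.4 and 16.8 CPM in FKO, a log2 fold change of -1.03 (SE 0.18, 2.04-fold lower, edgeR adjusted p = 0.0087). Its relative Adamts6 stood at 6.12, 2.79 and 3.15 CPM in f/f and at 2.82 and 4.18 CPM in FKO (edgeR adjusted p = 0.746). Adamts7 and Adamts12, which cut the cartilage oligomeric matrix protein COMP, both had higher FKO means and did not pass. Adamts12 stood at 46.4, 40.6 and 23.1 CPM in f/f and at 76.5 and 47.6 CPM in FKO (log2 fold change 0.76, edgeR adjusted p = 0.123). Adamts7 stood at 2.73, 3.59 and 3.62 CPM in f/f and at 4.18 and 3.95 CPM in FKO (log2 fold change 0.29, edgeR adjusted p = 0.409). In both genes the groups did not overlap.

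All 5 ADAMTS-like genes had negative log2 fold changes and 2 of them passed the test (40.0% called lower, against 13.4% of all genes tested). A share of so few genes is imprecise. Adamtsl2 (gene 77794, chr2:27079381-27108613), a fibrillin-binding protein linked to TGF-beta signalling and, in humans, to geleophysic dysplasia, stood at 3.66, 5.49 and 4.39 CPM in f/f and at 0.53 and 0.40 CPM in FKO. Counts were 165, 323 and 281 against 24 and 17, with no overlap. The log2 fold change was -3.26 (SE 0.34, 9.58-fold lower, edgeR adjusted p = 0.00198).

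Adamtsl4 (gene 229595, chr3:95676201-95687917), which also binds fibrillin and is mutated in ectopia lentis in humans, stood at 22.3, 33.5 and 23.9 CPM in f/f and at 13.1 and 14.5 CPM in FKO (log2 fold change -0.94, SE 0.21, 1.92-fold lower, edgeR adjusted p = 0.0195). Adamtsl5 stood at 3.66, 4.86 and 5.73 CPM in f/f and at 2.98 and 1.66 CPM in FKO, without overlap (edgeR adjusted p = 0.0656). Adamtsl1 stood at 2.90, 1.77 and 1.80 CPM in f/f and at 1.09 and 0.62 CPM in FKO, also without overlap (edgeR adjusted p = 0.0569). Adamtsl3 stood at 0.80, 2.42 and 1.70 CPM in f/f and at 1.22 and 0.74 CPM in FKO (edgeR adjusted p = 0.329). Of the 37 genes, the 7 with a mean under 1 CPM had log2 fold changes between -3.12 and 0.35 and edgeR adjusted p between 0.204 and 0.907. Their counts limit what could be detected in them.

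The calls of Adamts5, Adamts2, Adamtsl2, Mmp11 and Timp2 held in all 15 alternatives tried. Mmp19, Adamts10, Adamtsl4, Adamts9, Adamts4, Adamts1, Mmp9 and Timp1 lost theirs when either FKO library was left out, and Mmp23 when FKO 2 was (edgeR adjusted p = 0.052). These fits leave 1 FKO library, which is assumed to vary like the others, and over all genes they made 909 calls without FKO 1 and 1022 without FKO 2, against 3674 in all libraries. The folds of the genes that lost the call moved by at most 1.37 times.

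Levels of different genes were set side by side per transcript length, in the FPKM of the deposited table (fragments per unit of transcript length and of library size), which carry no TMM scaling. Timp4 was first in both groups, at a mean of 246 FPKM in f/f and 268 FPKM in FKO, followed by Adamts1 at 127.5 and 69.0 FPKM. Adamts5 held rank 4 in f/f at 39.7 FPKM and rank 14 in FKO at 2.58 FPKM. Mmp11 went the other way, from rank 22 at 1.46 FPKM to rank 5 at 17.7 FPKM.

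Summed over the 14 MMP genes, the level was 75.0, 81.5 and 119 FPKM in f/f and 84.0 and 108 FPKM in FKO. In FPKM, FKO lay within the f/f range, although the makeup of the sum differed. Mmp11 supplied 1.43%, 1.66% and 1.65% of it in f/f against 13.4% and 22.3% in FKO, and Mmp19 supplied 39.7%, 35.0% and 33.1% in f/f against 62.2% and 48.4% in FKO. Mmp12 supplied 18.8%, 11.1% and 26.9% in f/f against 1.62% and 12.5% in FKO. In CPM scaled by TMM, the MMP genes summed to 248.4, 268.5 and 362.1 in f/f and to 302.3 and 370.4 in FKO. In that unit FKO 2 lay above every f/f library. No test was made on these sums.

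The 4 TIMP genes summed to 266, 331 and 411 FPKM in f/f and to 285 and 341 FPKM in FKO, again inside the f/f range. Timp4 made up 72.3%, 74.8% and 72.5% of that in f/f against 83.7% and 87.3% in FKO. Without Timp4 the other 3 summed to 73.6, 83.5 and 113 FPKM in f/f and to 46.5 and 43.1 FPKM in FKO, which do not overlap. The ratio of the TIMP to the MMP sum was 3.55, 4.06 and 3.44 in f/f against 3.39 and 3.16 in FKO.

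The 14 ADAMTS genes summed to 179.9, 237.9 and 209.5 FPKM in f/f and to 107.7 and 85.0 FPKM in FKO. The f/f mean of 209 ± 29.0 FPKM (SD, n = 3) was 2.17 times the FKO mean of 96.4 ± 16.0 FPKM (SD, n = 2), and every f/f library was above both FKO libraries. Adamts1 supplied 66.7%, 59.0% and 58.4% of the sum in f/f against 72.7% and 70.2% in FKO. Adamts5 supplied 14.1%, 21.5% and 20.3% in f/f against 2.21% and 3.27% in FKO.

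**Figure D3:**
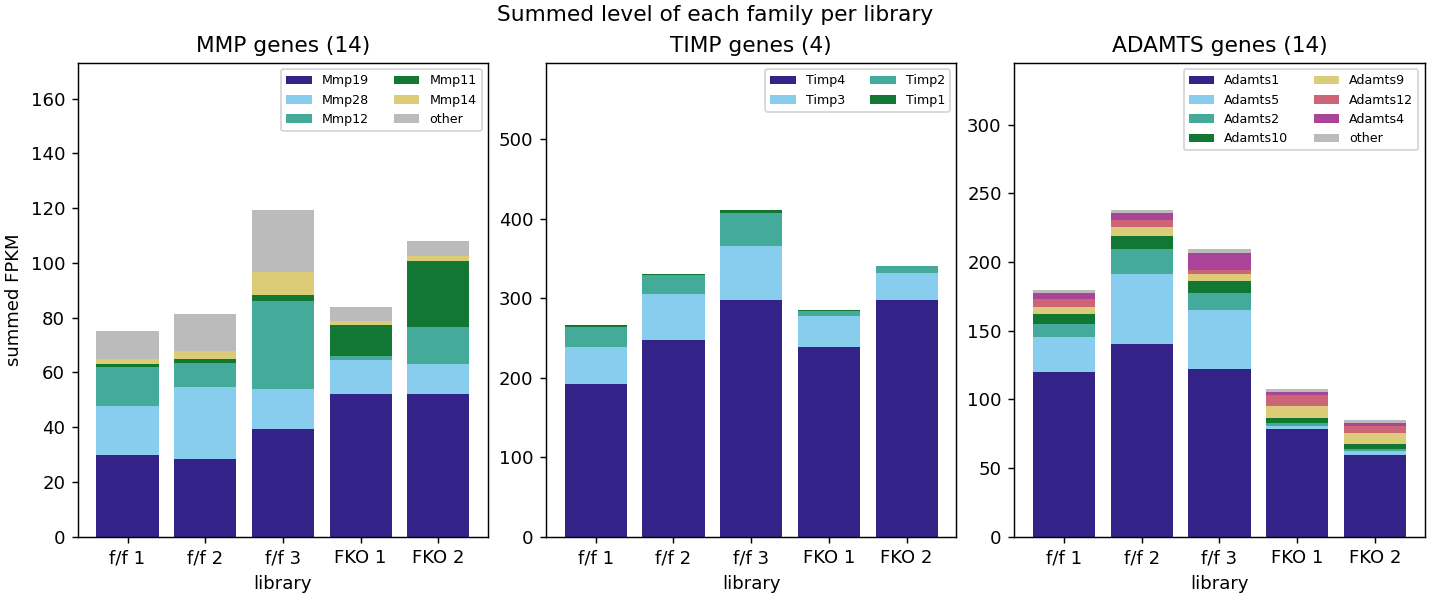
Summed FPKM (y axes start at 0 and differ between panels) of the MMP, TIMP and ADAMTS genes in each of the 5 libraries, with the genes that contribute most as coloured segments. The MMP and TIMP sums of FKO lie within the f/f range, and the ADAMTS sums are 107.7 and 85.0 in FKO against 179.9 to 237.9 in f/f.

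The deposited table splits counts between RefSeq transcripts, and such splits are model estimates that were described and not tested. Of the 2 transcripts of Mmp11, the shorter one held 4.63%, 9.09% and 9.77% of the gene's counts in f/f against 21.4% and 18.7% in FKO. In FKO both transcripts were more abundant, the shorter at 265 and 456 counts against 5, 16 and 25 in f/f. The shorter of the 2 Mmp23 transcripts held 50, 93 and 215 counts in f/f and 0 in both FKO libraries, where the other held 35 and 26. The shorter Mmp19 transcript held 67.9%, 79.8% and 59.0% of counts in f/f against 87.0% and 85.8% in FKO. For Mmp12 the longer transcript held 29.8%, 30.4% and 26.1% in f/f, 1.6% in FKO 1 and 26.5% in FKO 2, so that FKO 1 stood apart in this measure too. Mmp19 overlaps Tmem198b in the table over 792 bases, and Tmem198b had 339, 413 and 514 counts in f/f against 218 and 153 counts in FKO.

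The 250 bases before the start came from RefSeq (GRCm38.p6), and 25 of the 37 genes had an entry. They were searched on both strands for the TATA box, written TATAAA. The GC box was written GGGCGG. The AP-1 motif was written TGAGTCA. No one of these motifs contains another. The GC box was in 17 of the 25 and in 32.7% of 32851 promoters, the TATA box in 4 of the 25 and in 12.4% of promoters, and the AP-1 motif in 3 of the 25 and in 4.46% of promoters. The 25 are genes, counted if any entry held the motif, while the percentages are of entries, so the units differ. Mmp12 and Mmp23 had more than 1 entry, and Mmp12 held the AP-1 motif in only 1. Below are the 3 called genes with the largest fold changes that had an entry and at least 1 motif, and Mmp13, which has both the AP-1 motif and the TATA box. Capitals mark motif matches on either strand.
Mmp11: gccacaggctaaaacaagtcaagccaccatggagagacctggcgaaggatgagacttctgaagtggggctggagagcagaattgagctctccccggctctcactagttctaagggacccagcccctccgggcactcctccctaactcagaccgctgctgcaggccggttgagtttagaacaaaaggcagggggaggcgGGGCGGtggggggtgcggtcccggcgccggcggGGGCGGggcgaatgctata
Adamtsl2: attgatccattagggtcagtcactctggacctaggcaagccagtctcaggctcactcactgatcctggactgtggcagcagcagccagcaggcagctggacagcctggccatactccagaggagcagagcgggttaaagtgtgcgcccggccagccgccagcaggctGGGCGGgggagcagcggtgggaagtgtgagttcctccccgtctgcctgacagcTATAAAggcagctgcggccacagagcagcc
Adamts2: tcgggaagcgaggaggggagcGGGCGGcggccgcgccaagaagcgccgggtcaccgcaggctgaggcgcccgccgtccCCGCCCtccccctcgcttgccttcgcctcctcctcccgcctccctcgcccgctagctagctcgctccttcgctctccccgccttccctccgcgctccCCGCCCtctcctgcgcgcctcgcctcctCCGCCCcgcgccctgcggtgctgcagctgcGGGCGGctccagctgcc
Mmp13: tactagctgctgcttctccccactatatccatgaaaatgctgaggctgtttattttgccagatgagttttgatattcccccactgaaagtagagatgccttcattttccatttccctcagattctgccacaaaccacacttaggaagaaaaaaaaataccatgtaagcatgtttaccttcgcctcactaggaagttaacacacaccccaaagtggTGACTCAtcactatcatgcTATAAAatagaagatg
They lie at chr10:75932503-75932752 (minus strand), chr2:27079129-27079378 (plus strand), chr11:50601835-50602084 (plus strand) and chr9:7272264-7272513 (plus strand). Mmp11, which rose, held 2 GC boxes and Adamts9, which also rose, 1. The Adamts9 entry, chr6:92943535-92943784 (minus strand), does not adjoin the stretch counted for that gene, chr6:92772699-92901441. Adamts2, which fell, held 5, and Mmp23, which also fell, held none of the motifs. Adamtsl2 held 1 GC box and 1 TATA box close to its start. The AP-1 motif was in Mmp3, Mmp12 and Mmp13, none of which was called. Adamts5 and Mmp19 had no entry.

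Other genes of matrix breakdown were counted in the same fit. Of 17 other matrix-degrading enzymes tested, 3 rose (17.6%, against 11.9% of all genes tested) and 7 fell (41.2%, against 13.4%). Their median log2 fold change was -0.91. Most are proteases, but the hyaluronidases Hyal1 and Hyal2 and the heparanase Hpse are not. The 3 that rose were Hyal1, Hyal2 and the serine protease Cela1, so the share that rose is not one of proteases. Hpse was among the 7 that fell. The serine proteases Htra4, Htra3 and Htra1 were 7.42-fold, 3.73-fold and 3.09-fold lower (edgeR adjusted p = 0.000975, 0.00325 and 0.00415), and the hyaluronidase Hyal1 was 3.96-fold higher (edgeR adjusted p = 0.00145). Of 11 ADAM genes, the membrane relatives of the ADAMTS enzymes, 2 rose (18.2%) and 1 fell (9.09%), with a median of -0.32, and at so few genes these shares are near those of all genes tested. Adam23 and Adam12 were 9.11-fold and 3.02-fold higher and Adam19 1.74-fold lower (edgeR adjusted p = 0.00194, 0.0109 and 0.0241).

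Of 21 regulators of these proteases, 2 rose (9.52%) and 8 fell (38.1%), with a median log2 fold change of -0.70. Thrombospondins Thbs2 and Thbs1, which bind MMPs, were 11.1-fold and 5.27-fold lower (edgeR adjusted p = 0.000355 and 0.00193). Tfpi2, a serine protease inhibitor of the matrix, was 4.53-fold lower, and Serpine2, an inhibitor of thrombin and plasminogen activators, was 2.33-fold higher (edgeR adjusted p = 0.00866 and 0.00344). Reck, a membrane-anchored inhibitor of MMP2, MMP9 and MMP14 chosen for mention once its values were known, stood at 6.34, 8.55 and 5.39 CPM in f/f and at 2.84 and 3.14 CPM in FKO (2.26-fold lower, edgeR adjusted p = 0.0205). Of 28 substrates, 12 fell (42.9%) and none rose, with a median of -0.76. They included Col6a1, Col18a1, Col1a2 and Col3a1, at 11.5-fold, 7.52-fold, 4.74-fold and 2.79-fold lower (edgeR adjusted p = 0.00486, 0.00466, 0.00486 and 0.00649).

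Markers of some other cell types also differed between the groups, and those of others did not. The 12 macrophage markers summed to 1319, 1028 and 1765 CPM in f/f and to 465 and 565 CPM in FKO. Of them, 9 were called lower (75.0%, against 13.4% of all genes tested) and none was at 0. The highest f/f value of that sum was in f/f 3, as it was in 17 of the 37 genes, Mmp9 and Mmp12 among them. In 14 of the 37 it was in f/f 2 and in 6 in f/f 1. The share over all genes was not counted, so these counts do not link the genes to macrophages. The part of macrophage markers in Mmp9 and Mmp12 was not tested. Neutrophil markers, from cells that also make MMP9, summed to 5.26, 5.60 and 9.24 CPM in f/f and to 4.20 and 4.97 CPM in FKO, and Mpo and Ly6g were at 0 in every library. The groups did not overlap in that sum, but no neutrophil marker was called lower. Camp was called higher, with 0 counts in every f/f library against 32 and 34 counts in FKO (edgeR adjusted p = 0.00712).

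Of 10 mesothelium markers tested all 10 fell (100%, against 13.4% of all genes tested). The list summed to 120, 57.5 and 95.6 CPM in f/f and to 27.3 and 17.6 CPM in FKO. Of 12 fibroblast and progenitor markers, 5 fell (41.7%) and 0 rose. The list summed to 12162, 12577 and 11881 CPM in f/f and to 5090 and 3539 CPM in FKO, most of it from Gsn. Without Gsn the sum was 145.4, 164.2 and 227.4 CPM in f/f and 100.8 and 114.8 CPM in FKO. None of these markers was at 0, and fibroblasts and progenitors are a known source of Adamts2, Adamts5, Mmp2 and Timp2. The part of these cells in the lower values of those genes was not tested. Endothelium markers summed to 480, 600 and 764 CPM in f/f and to 549 and 498 CPM in FKO, with none of 8 called. Of 8 mural cell markers 1 rose (12.5%, against 11.9% of all genes tested) and 4 fell (50.0%). The list summed to 287, 521 and 428 CPM in f/f and to 456 and 461 CPM in FKO. The one that rose, Cspg4, set that order: the other 7 summed to 243.1, 451.6 and 395.6 CPM in f/f and to 170.6 and 173.1 CPM in FKO, lower in both FKO libraries than in every f/f library. Camp, Cspg4 and Gsn were picked out, and the last 2 left out of their sums, with the data already seen. T and B cell markers summed to 1.06, 1.33 and 3.17 CPM in f/f and to 1.60 and 0.784 CPM in FKO. Epididymal epithelium markers summed to 6.52, 0.357 and 0.984 CPM in f/f and were at 0 in FKO.

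**Figure D4:**
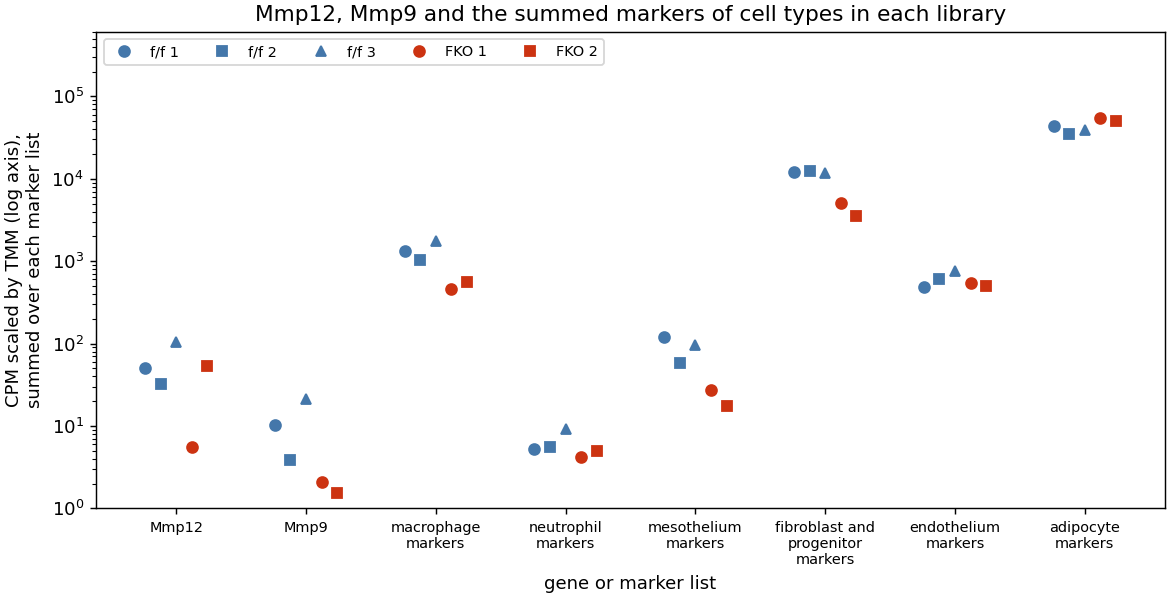
CPM scaled by TMM (log axis) of Mmp12, Mmp9 and the sums of 6 marker lists in each library; blue symbols are f/f and red symbols FKO. Macrophage, mesothelium and fibroblast sums are lower in both FKO libraries than in every f/f library, and Mmp12 is not, as FKO 2 stands at 53.7 CPM.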

How the data were processed

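Per the labels' protocols, poly-A selected RNA was prepared with a TruSeq kit and read on a HiSeq4000. The submitters' processing notes name HISAT2 2.1.0, HISAT, Bowtie2, StringTie 1.3.4d and mm10, with no role. The authors deposited 1 table of RefSeq transcripts with an estimated count, in whole numbers, and an FPKM value per library, per the file headers. Such counts are estimates, and a gene's counts can be split with overlapping or similar genes. Coordinates are those of the table on mm10, 1-based. The single row with no gene was left out, which left 36779 transcripts, and 0 columns of values per sample were unused.

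Counts were summed per gene identifier. Groups came from the sample titles. Genes were tested in R 4.3.3 with edgeR 4.0.16 (quasi-likelihood test, TMM, filterByExpr, genotype as the sole term), fitted on all 14492 genes that passed the filter, with Benjamini-Hochberg adjustment over all of them at 0.05. All 37 genes described here passed the filter. The biological coefficient of variation was 23%. The square root of F was divided into the log2 fold change to give its standard error, and fold changes are FKO against f/f. The floor of 3 counts covers counting error only. Within a group, no pair of libraries was as alike as counting noise would make it (median chi-square per gene 3.71 to 15.48, where noise alone gives 0.455).

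The members and the gene lists were chosen with earlier results of these data known. The text names every member that passed, every Timp gene, the other members with a mean of at least 1 CPM, and the 4 genes of smallest p at most in each list. Hyal2, Cela1 and Hpse were named besides these, to show which genes of their list are proteases. The edgeR test was also run on simulated data for FKO against f/f (14301 genes, the same dispersion for each). It found 4.62% of 65 genes given a 1.5-fold change, 30.3% of 66 given a 2-fold change and 100% of 65 given a 4-fold change. Of its calls, 6.38% were false. The simulation changed a far smaller share of genes than the 25.4% called in the data, so its rates may not hold for the real fit. Alternatives were RLE, upper-quartile and library-size scaling, no filter, a stricter filter, the replicate number as a block, DESeq2 1.42.0, limma-voom (limma 3.58.1), limma on log2 FPKM with a pseudocount of 0.1 or 1, and each library left out in turn.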

Additional observations from a re-analysis of the deposited data

How the results depend on the processing

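No gene of the set that was called changed sign under any of the 15 alternatives, 5 of the 14 kept the call in all of them and 9 lost it in at least 1. Higher and lower counts of the 37 genes ranged from 1 to 3 and from 5 to 10 with 1 library left out, and over all genes from 485 to 1690 and from 424 to 1759. Without FKO 1, 8 calls were lost, and without FKO 2, 9. The other losses were those of Adamts1 (without f/f 1 or f/f 2), Adamts4 (adjusted p = 0.0517 with no filter, 0.0641 by limma-voom and 0.0659 on FPKM with a pseudocount of 1), Adamts9 (0.0557 and 0.0653 on FPKM with a pseudocount of 0.1 and 1), Mmp9 (0.119 by limma-voom, 0.071 on FPKM with a pseudocount of 1 and 0.0581 by edgeR without f/f 1) and Timp1 (0.0576 by limma-voom, and by edgeR 0.0645 without f/f 2 and 0.0672 without f/f 3). Of the 23 genes not called, 6 were called in at least 1 alternative, among them Mmp2 by DESeq2 (adjusted p = 0.0153) and Timp3 by edgeR with library-size scaling (0.0442). limma-voom called 3 higher and 8 lower, and DESeq2 3 and 14.

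The median log2 fold change of the 37 genes was -0.89 with library-size scaling, -0.87 with the stricter filter (30 genes) and -0.23 on FPKM with a pseudocount of 1, and -0.88 to -0.48 with 1 library left out. That pseudocount compresses low genes, and gave 7.20-fold for Mmp11, 2.17-fold for Adamtsl2, 3.06-fold for Mmp23, 2.85-fold for Mmp9 and 2.18-fold for Timp1. Over all genes, 1030 were higher with library-size scaling, 1088 and 1051 on FPKM with a pseudocount of 0.1 and 1, and 2962 were lower with 0.1. Scaling moved the share of calls that were higher from 47.1% to 35.0% (upper quartile) and 26.1% (library size), and the median of all genes from -0.05 to -0.17 and -0.27. On FPKM with a pseudocount of 0.1 and 1, where the test, the values and the scaling all differ, the shares were 26.9% and 28.8% and the medians -0.24 and -0.15. The cause of these differences was not tested.

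With the replicate number as a block, 3 genes of the set were higher and 13 lower, and 1551 and 1727 of all genes. Deviations of same-numbered libraries correlated at 0.07 and -0.08. Each f/f library gave correlations of equal size and opposite sign with the FKO libraries, because so few libraries leave these values tied to each other. They therefore cannot decide whether libraries with the same number share more than a name. Precision is limited for the 7 genes with a mean under 1 CPM.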
